A study of Mus musculus with 12 samples.

Results

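The Gm10718 family comprised 10 mouse genes, namely Gm10715, Gm10717, Gm10718, Gm10719, Gm10720, Gm10721, Gm10722, Gm10800, Gm10801 and Gm11168, out of 40077 genes listed for cells and 34508 listed for tumors. The genes were chosen by name, because Gm10718 was strongly higher in YJ1206-treated cells and the others are near-identical predicted genes that share its reads. Their increase in cells is therefore a description and carries no test below, whereas the tumor comparison was not used to choose them. The RNA came from Myc-CaP cells, a mouse prostate cancer line derived from a tumor driven by a MYC transgene. Cells were treated with DMSO, the solvent control, or with YJ1206, a compound that degrades the transcription-associated kinases CDK12 and CDK13, at 1 μM for 24 hours. Subcutaneous Myc-CaP tumors, which also contain stroma, vessels and leukocytes of the FVB host, were taken from mice dosed orally with vehicle or with 100 mg/kg of YJ1206 on a schedule of 3 doses per week. Each of the 4 groups had 3 libraries. The age of the mice and the time from the last dose to harvest are not given in the sources used here.

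Tandem satellite repeats fill the chromatin beside mouse centromeres, where the major satellite is an AT-rich unit repeated in long arrays. This chromatin is normally compacted by HP1 proteins and by methylation of DNA and of histone H3, and little RNA is made from it. Most satellite DNA is missing from the genome assembly, and the few copies that were assembled carry predicted gene models, which gene-level RNA sequencing then counts as genes. A read counted for one of these genes can come from any repeat of the same sequence, assembled or not.

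All 10 genes were annotated as protein-coding in GENCODE M21 (GRCm38), and their own identifiers matched that annotation, versions included. Of all identifiers, 39142 of 40077 for cells and 33755 of 34508 for tumors matched with version. Each of their 24 annotated transcripts consisted of coding sequence alone. Of the 10, 8 genes lay in a row on the plus strand of chromosome 9 within 37395 bases: Gm10722 (chr9:3000922-3002330), Gm11168 (chr9:3003346-3006948), Gm10721 (chr9:3013140-3014344), Gm10720 (chr9:3015654-3017210), Gm10719 (chr9:3017408-3021593), Gm10718 (chr9:3023547-3025218), Gm10717 (chr9:3025417-3033289) and Gm10715 (chr9:3036877-3038316). The other 2 lay near each other on chromosome 2, Gm10801 on the plus strand (chr2:98662237-98664083) and Gm10800 on the minus strand (chr2:98666547-98667301). A long noncoding RNA gene, Gm26870, runs on the minus strand across nearly the whole chromosome 9 row and holds 902 of the family's 31-base words in antisense. It was in neither table, and since no source states that strand was used in counting, sense and antisense reads of this row cannot be told apart.

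**Figure D1:**
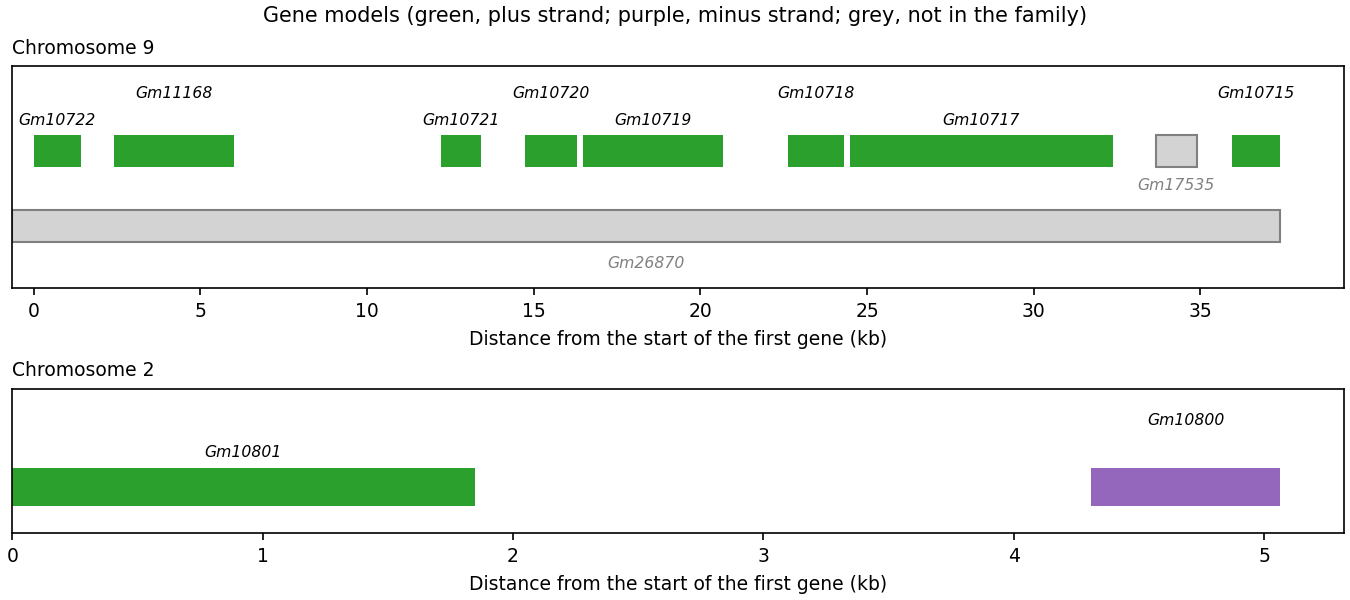
Position of the gene models on chromosomes 9 and 2, drawn as distance in kb from the start of the first gene of each row. The 8 chromosome 9 genes lie on the plus strand within 37395 bases and the antisense gene Gm26870 overlaps all of them.

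The sequences show how alike the copies are and where they differ. In most of the transcripts the best match of the sequence with itself was at a shift of 234 bases, which is the unit length of the mouse major satellite. The shift was 237 bases in Gm11168, 231 in Gm10801 and 225 in Gm10800. The first 234 bases of the Gm10718 transcript are printed first, and the stretches of 4 other transcripts that aligned with them follow, with bases that differ from Gm10718 in capitals. Gm10719 and Gm10721 represent chromosome 9, and Gm10800 and Gm10801 are the chromosome 2 pair.

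Gm10718: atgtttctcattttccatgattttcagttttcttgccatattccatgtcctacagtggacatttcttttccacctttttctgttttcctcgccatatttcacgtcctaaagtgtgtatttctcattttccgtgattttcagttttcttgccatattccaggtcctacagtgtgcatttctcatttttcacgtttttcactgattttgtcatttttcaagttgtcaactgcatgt

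Gm10719: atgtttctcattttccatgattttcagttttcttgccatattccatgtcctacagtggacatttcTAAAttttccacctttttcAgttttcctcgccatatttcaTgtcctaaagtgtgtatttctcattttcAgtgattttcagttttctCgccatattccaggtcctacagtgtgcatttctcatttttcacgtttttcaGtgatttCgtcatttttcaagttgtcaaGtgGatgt

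Gm10721: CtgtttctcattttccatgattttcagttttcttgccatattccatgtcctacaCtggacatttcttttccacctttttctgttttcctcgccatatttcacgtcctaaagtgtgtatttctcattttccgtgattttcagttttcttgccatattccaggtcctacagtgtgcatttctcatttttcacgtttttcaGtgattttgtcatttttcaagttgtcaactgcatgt

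Gm10800: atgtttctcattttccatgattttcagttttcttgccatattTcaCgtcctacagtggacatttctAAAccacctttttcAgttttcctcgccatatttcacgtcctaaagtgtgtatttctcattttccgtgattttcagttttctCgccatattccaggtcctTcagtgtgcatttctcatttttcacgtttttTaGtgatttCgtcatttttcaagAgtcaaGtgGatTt

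Gm10801: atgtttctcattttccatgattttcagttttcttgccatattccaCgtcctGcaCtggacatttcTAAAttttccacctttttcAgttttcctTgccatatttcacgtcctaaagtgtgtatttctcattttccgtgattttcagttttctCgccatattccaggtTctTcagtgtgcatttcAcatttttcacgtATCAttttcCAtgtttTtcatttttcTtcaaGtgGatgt

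The Gm10721 stretch (bases 1 to 234 of its transcript) differed from Gm10718 at 3 bases. Gm10719 (bases 231 to 468) had 8 mismatches and 4 inserted bases. Gm10800 (bases 1 to 233) had 15 mismatches and lacked 1 base, and Gm10801 (bases 69 to 303) had 15 mismatches, 8 inserted bases and 7 missing bases. Over whole transcripts, identity with Gm10718 was 91.9% to 97.1% among the other chromosome 9 genes, 91.5% for Gm10800 and 67.9% for Gm10801, whose transcript was the shortest at 504 bases. The transcripts shown were 34.3% to 36.0% G and C.

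This likeness limits how well reads can be assigned to one copy. Cut into words of 31 bases, the 10 genes held 4417 distinct words, of which 1441 occurred in at least 2 of them. Members were compared with each other in sense, and with other annotated genes on both strands. For Gm10718, 79.0% of its words also occurred in another member and 15.2% in no other annotated transcript. The share of words found nowhere else was 5.63% for Gm10720 and 10.7% for Gm10721, and it was largest for the chromosome 2 pair, at 58.0% for Gm10800 and 63.8% for Gm10801. Most deposited counts of these genes were not whole numbers, as arises when a read is divided among several matching transcripts. A value for one chromosome 9 copy is thus an allocation, and the sums over copies are the firmer quantity.

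**Figure D2:**
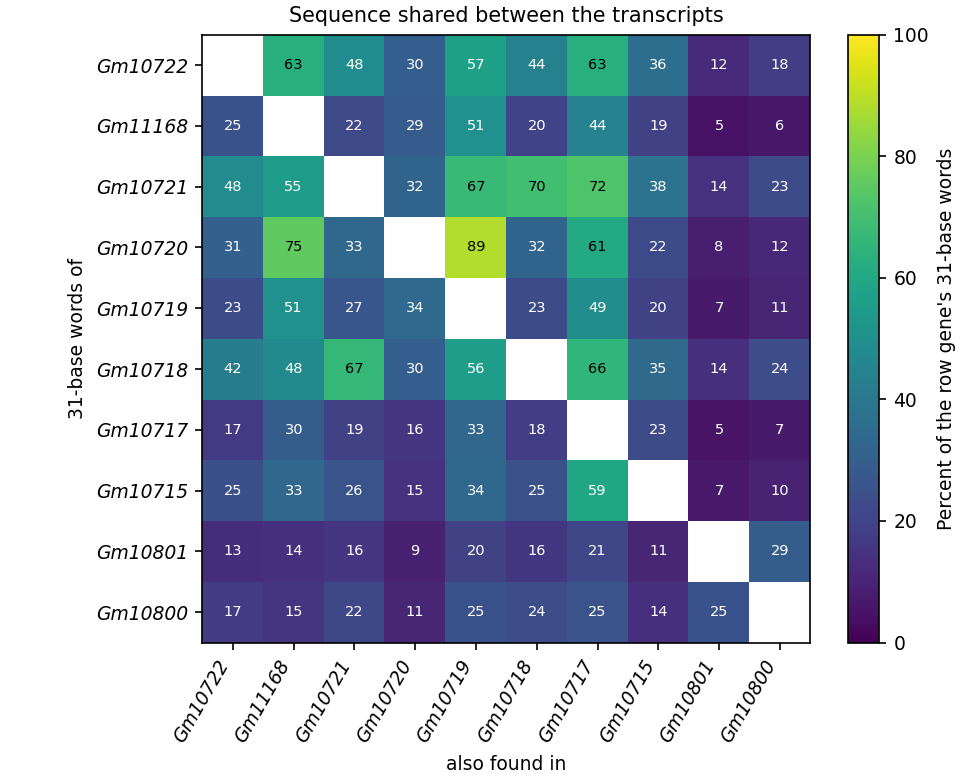
Percent of each row gene's 31-base words that also occur in each column gene (color scale 0 to 100%, the diagonal left blank). Within chromosome 9 the share ranges from 14.8% of Gm10715 words in Gm10720 to 88.5% of Gm10720 words in Gm10719, and 25.4% of Gm10800 words occur in Gm10717, so the ranges within and between the chromosomes overlap.

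Total counts were 18198194 to 18520071 in DMSO cells, 13936984 to 14869719 in YJ1206 cells, 15391684 to 26928447 in vehicle tumors and 18307881 to 22418746 in YJ1206 tumors. Levels are given as CPM, counts scaled to 1000000 per library, after TMM scaling within each experiment, where 3 counts, the floor used here, correspond to 0.151 to 0.231 CPM in cells and 0.113 to 0.194 CPM in tumors. Epcam, an epithelial marker on the prostate list, was at 0 in all cell libraries. In cells, the library names of the 2 groups come from separate number series, so any library batch and the treatment cannot be told apart. In tumors, library 3 of each group lay between the other libraries. For 847 genes, vehicle libraries 1 and 2 were at least 2-fold apart, and library 3 had an intermediate level for 96.8% of these, as it did for 92.9% of 296 such genes in YJ1206 tumors. Choosing genes by the gap between libraries 1 and 2 favors such a position, and in cells the shares were 78.9% of 38 genes with DMSO and 69.7% of 33 genes with YJ1206. What sets library 3 in this place was not tested. The study calls its replicates independent, without tying each library to a separate animal. The tumor fits of the members and their sums were therefore repeated with libraries 1 and 2 alone.

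In DMSO cells, Gm10800 was the most abundant member and the chromosome 9 copies were scarce. The summed level of all 10 genes was 16.9, 15.6 and 16.1 CPM in the 3 DMSO libraries and 83.2, 82.6 and 60.2 CPM in the 3 YJ1206 libraries. All YJ1206 libraries were above all DMSO libraries, and library 3 was the lowest of the treated ones. The means were 16.2 ± 0.650 and 75.3 ± 13.1 CPM (SD, n = 3), a 4.65-fold difference, or 2.22 on the log2 scale (SE 0.090).

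The difference was unequal between the chromosome 9 and chromosome 2 sums. Of the Gm10800 and Gm10801 words, 25.4% and 21.4% also occurred in Gm10717 on chromosome 9. This split thus rests on read allocation too, and the locus a read came from cannot be told from it. The 8 chromosome 9 genes summed to 3.22 ± 0.754 CPM in DMSO cells and 42.3 ± 8.31 CPM in YJ1206 cells (SD, n = 3), 13.1-fold higher. The chromosome 2 pair was at 13.0 ± 0.135 and 33.0 ± 5.02 CPM, 2.55-fold higher. The chromosome 9 genes thus made up the smaller portion of the family signal in DMSO cells and the larger portion after YJ1206. The ratio of chromosome 9 to chromosome 2 levels was 0.309, 0.189 and 0.248 in DMSO cells and 1.24, 1.39 and 1.20 in YJ1206 cells.

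**Figure D3:**
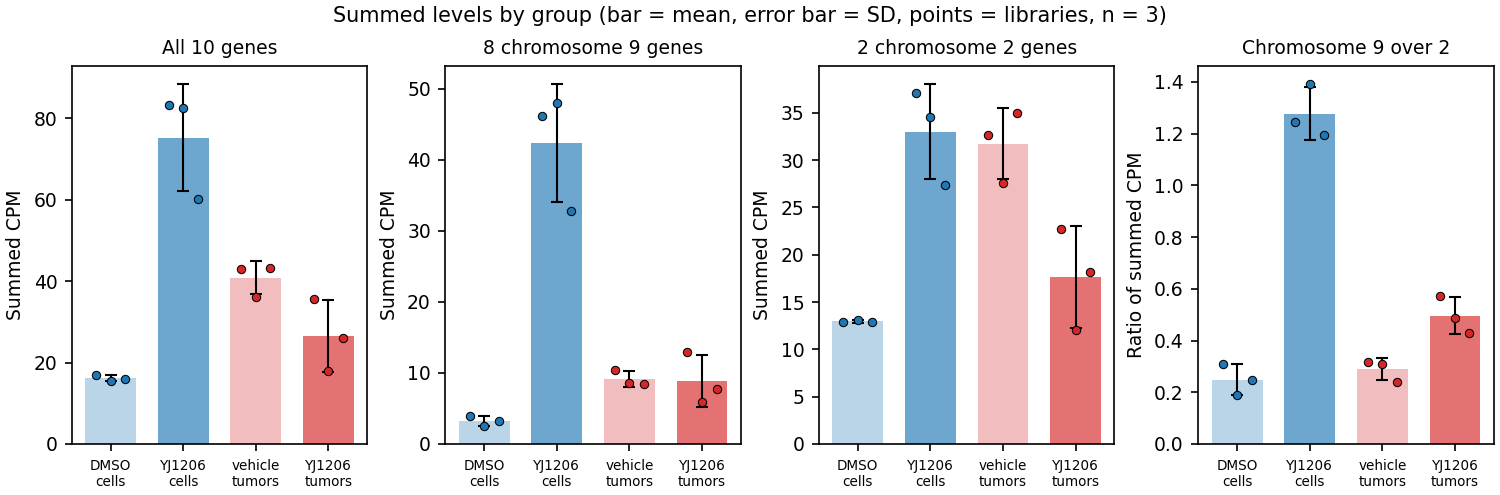
Summed CPM of all 10 genes, of the 8 chromosome 9 genes and of the 2 chromosome 2 genes, and the ratio of the last 2 sums, by group (bars, means; error bars, SD; points, libraries, n = 3). YJ1206 cells exceed DMSO cells in every panel, while in YJ1206 tumors the chromosome 2 sum is lower than in vehicle tumors and the chromosome 9 sum overlaps.

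Of the chromosome 9 copies, Gm10718 reached the highest level. It was at 0.763, 1.03 and 0.982 CPM in DMSO cells and at 18.0, 16.2 and 12.7 CPM in YJ1206 cells, 16.9-fold higher by the means, with a log2 fold change of 4.08 (SE 0.18). Behind these levels stood 14.9 to 19.9 estimated counts per DMSO library and 164.6 to 251.8 per YJ1206 library. Gm10718 thus stood above the floor in every cell library.

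Gm10719 followed, at 0.546, 0.341 and 0.760 CPM in DMSO cells and 9.75, 9.66 and 6.90 CPM in YJ1206 cells. Gm10721 was at 1.64, 0.368 and 1.07 CPM in DMSO cells and 8.06, 9.58 and 5.23 CPM in YJ1206 cells. Gm10720 was near the floor in DMSO cells, with 0, 4.1 and 1.35 counts, and at 4.24, 3.76 and 2.22 CPM in YJ1206 cells. None of these 3 genes overlapped between the groups, where 38.4% of all genes tested were higher without overlap. Their fitted log2 fold changes were 3.95 (SE 0.25), 2.89 (SE 0.29) and 5.21 (SE 0.50). The value of Gm10720 rests on the few DMSO counts, and was 6.68 without DMSO library 2 and 3.09 on the log2(TPM + 1) scale.

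The remaining chromosome 9 copies stayed at or below 3.33 CPM in every cell library. Gm10722 was at 0.625, 0.070 and 0 CPM in DMSO cells and at 2.82, 2.84 and 2.54 CPM in YJ1206 cells. Gm10717 had 0.411, 0.301 and 0.101 CPM in DMSO cells against 2.06, 3.33 and 1.78 CPM. Gm11168 had 0, 0.153 and 0.214 CPM against 1.07, 2.13 and 1.43 CPM. These 3 genes also separated the groups, with DMSO levels at or near the floor in most libraries. Their log2 fold changes were 3.58, 3.10 and 3.61, and that of Gm10722 was 6.36 without DMSO library 1, which held most of its DMSO counts. Gm10715 was listed at 0 in all DMSO cells and at 1.34, 6.32 and 0 counts in YJ1206 cells, so only 1 library exceeded the floor and no fold is given.

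On chromosome 2, Gm10800 was at 12.6, 12.8 and 12.3 CPM in DMSO cells and 35.8, 33.2 and 26.5 CPM in YJ1206 cells, 2.53-fold higher (log2 fold change 1.34, SE 0.094). Gm10801 was at 0.334, 0.279 and 0.543 CPM in DMSO cells and 1.28, 1.32 and 0.915 CPM in YJ1206 cells. Both were higher in every treated library, by less than any tested chromosome 9 copy. Per length, Gm10800 was still the highest in both groups, at 51.2 ± 1.15 and 102 ± 16.4 TPM (SD, n = 3), a unit scaled for transcript length and library,, against 3.58 ± 0.588 and 47.7 ± 8.77 TPM for Gm10718.

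**Figure D4:**
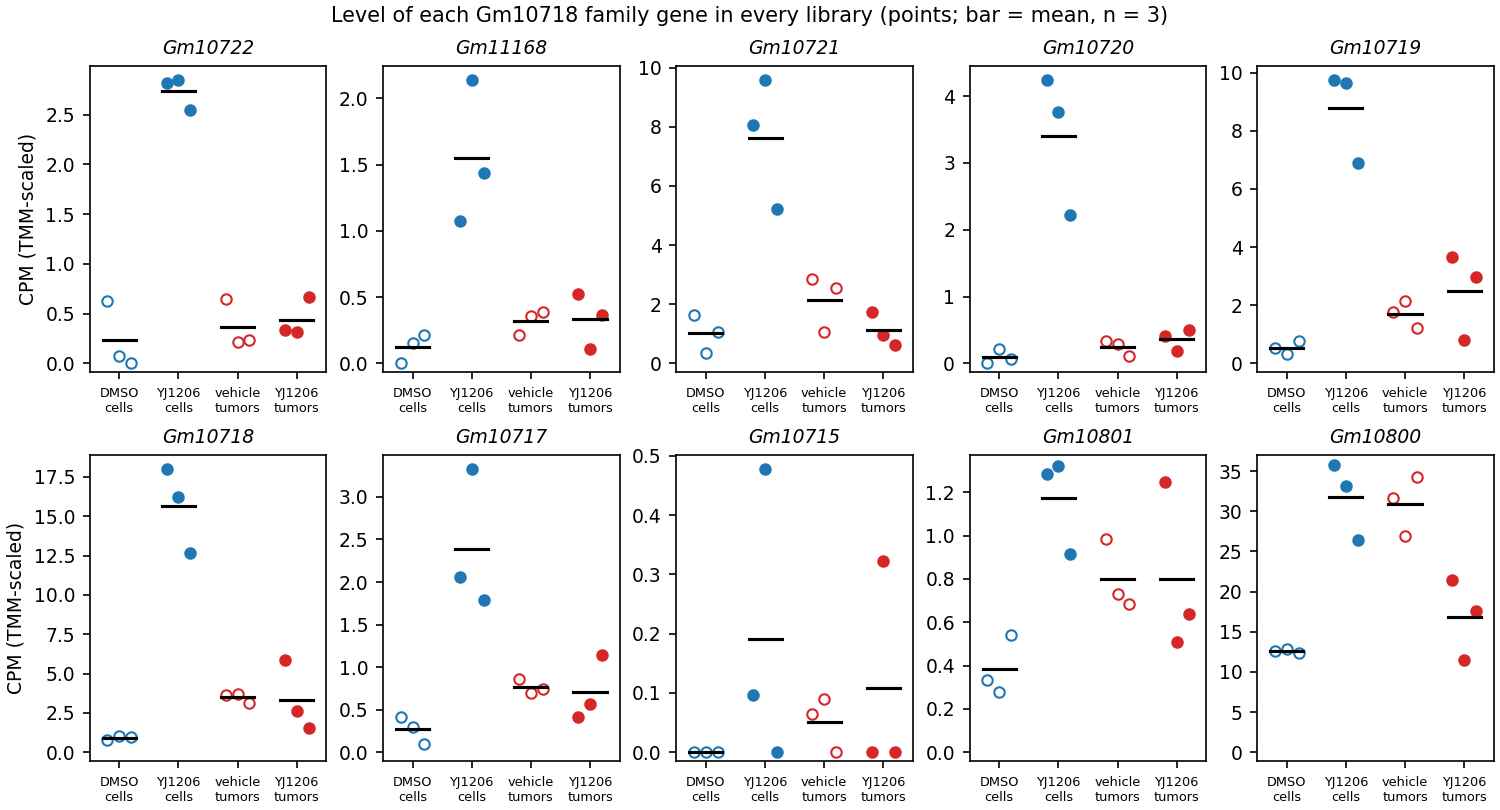
CPM of each gene in every library, in the order of the genes along chromosome 9 and then chromosome 2 (open circles, DMSO or vehicle; filled circles, YJ1206; bars, means of 3 libraries; each panel has its own axis). In cells, 9 of 10 genes separate the groups, and in tumors Gm10800 is the one gene that does. Of all genes tested, 38.4% were higher without overlap in cells and 22.8% were lower without overlap in tumors.

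Of the 10 members, 9 passed the count filter in cells, and all 9 were at least 2-fold higher with YJ1206, compared with 7.93% of all 11826 genes tested. On the log2(TPM + 1) scale the number was 7 and on log2(TPM + 0.1) it was 8, with Gm10800 under 2-fold in both (0.97 and 0.98). The same 9 had no overlap between groups, compared with 38.4% of all genes tested that were higher without overlap. Nothing is read from these counts, because the family was chosen for this contrast and several members passed the filter through their treated libraries. The median log2 fold change was 3.58 over the 9 genes and -0.02 over all genes tested. Among the other 654 tested genes that carry a Gm number, 8.26% were at least 2-fold higher and the median was -0.28, so a Gm number by itself did not go with an increase.

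Beyond the family, 3 annotated genes shared 31-base words with it, namely Gm26870, Gm17535 and Gm21738. Gm17535, which lies between Gm10717 and Gm10715 (chr9:3034599-3035805), was at 0 in the DMSO libraries and at 3.12, 3.15 and 6.01 counts in the YJ1206 libraries. Gm21738, which held 220 of the words, had 4.88 counts over the 3 DMSO libraries and 55.1 over the 3 YJ1206 libraries. These genes share the family's reads and their DMSO counts were at or near the floor, so their values are no separate support. In tumors, Gm21738 had 16.5 counts over the vehicle libraries and 12.9 over the YJ1206 libraries.

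Reads from silent genes were followed as a separate measure. Summed over 1995 genes of odorant, vomeronasal and trace amine receptors, which are normally silent outside sensory tissue, the level was 632 to 671 CPM in DMSO cells and 356 to 407 CPM in YJ1206 cells. In tumors, 1996 such genes summed to 3617 to 3776 CPM with vehicle and 3732 to 3938 CPM with YJ1206. In cells this sum was lower in the libraries in which the Gm10718 family was higher. Its counts were uneven, since 42.1% came from 3 genes (Olfr1372-ps1, Olfr1033 and Vmn1r43) and 1185 of the 1995 genes were at 0 in every cell library. What part such reads have in the family's levels was not tested.

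In tumors, YJ1206 was not followed by an increase. The family summed to 43.0, 36.2 and 43.3 CPM in vehicle tumors and to 35.7, 17.9 and 26.0 CPM in YJ1206 tumors. The highest YJ1206 library lay just under the lowest vehicle library. The means were 40.8 ± 4.05 and 26.5 ± 8.93 CPM (SD, n = 3), 1.54-fold lower with YJ1206, or -0.62 on the log2 scale (SE 0.23). With libraries 1 and 2 alone it was -0.57 (SE 0.34).

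The chromosome 9 and chromosome 2 sums differed from each other here as well. The chromosome 2 pair was at 31.7 ± 3.75 CPM in vehicle tumors and 17.7 ± 5.38 CPM in YJ1206 tumors (SD, n = 3), 1.80-fold lower. The chromosome 9 genes were at 9.10 ± 1.11 and 8.88 ± 3.68 CPM, with overlapping libraries. With libraries 1 and 2 alone, the log2 fold change was -0.80 (SE 0.32) for the chromosome 2 sum and -0.010 (SE 0.40) for the chromosome 9 sum. The ratio of chromosome 9 to chromosome 2 levels was 0.318, 0.309 and 0.240 in vehicle tumors and 0.571, 0.488 and 0.428 in YJ1206 tumors. Every treated library was above every vehicle library, by less than in cells.

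Of the 10 members, 6 passed the count filter in tumors, and 1 of these 6, Gm10800, differed at an adjusted p-value under 0.05 (edgeR quasi-likelihood test with Benjamini-Hochberg adjustment over 15558 genes), compared with 26.8% of all genes tested. None of the members was called higher and 1 was called lower, against 11.9% and 14.9% of all genes. Gm10800 was at 31.6, 26.9 and 34.3 CPM in vehicle tumors and 21.5, 11.5 and 17.6 CPM in YJ1206 tumors, without overlap, a separation that 22.8% of all genes tested showed in the lower direction. Its log2 fold change was -0.88 (SE 0.22, edgeR adjusted p = 0.023). With libraries 1 and 2 alone the log2 fold change was -0.83 (edgeR adjusted p = 0.25), and the edgeR adjusted p was 0.089 when vehicle library 3 was left out and 0.082 when YJ1206 library 3 was left out. The direction was the same in each of these fits and the call was not.

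The other tested members gave no call in tumors. Gm10718 was at 3.62, 3.70 and 3.13 CPM in vehicle tumors and at 5.87, 2.59 and 1.53 CPM in YJ1206 tumors (log2 fold change -0.07, SE 0.43, edgeR adjusted p = 0.93). The treated libraries lay on both sides of the vehicle libraries, which were close together. Gm10719 was at 1.76, 2.13 and 1.22 CPM against 3.68, 0.800 and 2.97 CPM (log2 fold change 0.50, SE 0.51, edgeR adjusted p = 0.51). Gm10721 was at 2.86, 1.05 and 2.54 CPM against 1.75, 0.978 and 0.620 CPM (log2 fold change -0.93, SE 0.49, edgeR adjusted p = 0.20). Without vehicle library 2, the lowest of its group, Gm10721 was called lower, at -1.29 (edgeR adjusted p = 0.033). Gm10717 and Gm10801 lay between 0.410 and 1.25 CPM in all tumors and had log2 fold changes of -0.12 (SE 0.39) and -0.05 (SE 0.41), with edgeR adjusted p-values of 0.85 and 0.94. With libraries 1 and 2 alone, the log2 fold changes were 0.20 for Gm10718, 0.17 for Gm10719, -0.53 for Gm10721, -0.61 for Gm10717 and 0.020 for Gm10801. None of these had an edgeR adjusted p-value under 0.05. The median over the 6 tested members was -0.09, and over all genes tested it was 0.01.

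The 4 members that did not pass the filter were scarce in all tumors. Gm10715, Gm10720, Gm10722 and Gm11168 had at most 0.670 CPM in any tumor library, and the groups overlapped for each of them. Fitted without the filter, their log2 fold changes were 1.19 (SE 1.45), 0.44 (SE 0.61), 0.21 (SE 0.58) and -0.02 (SE 0.65), each within 1 SE of 0. The levels allocated to the copies did not keep step within the YJ1206 libraries. Of the Gm10718 and Gm10719 words, 15.2% and 22.6% occurred in no other annotated transcript. The part of read allocation in these differences was not tested. YJ1206 library 1 had the highest Gm10718 and Gm10719 levels, whereas library 3 had the lowest Gm10718 and the second highest Gm10719 level of its group.

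**Figure D5:**
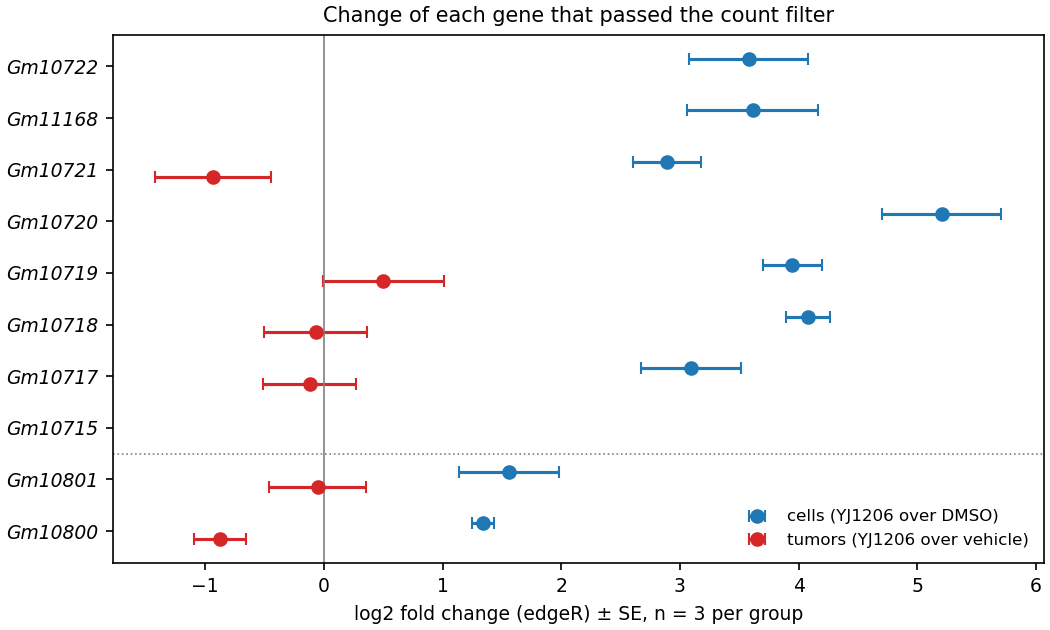
Log2 fold change with YJ1206 (edgeR, ± SE, 3 libraries per group) for each gene that passed the count filter, in cells (blue) and tumors (red), with chromosome 2 genes under the dotted line. All 9 values in cells are above 0, from 1.34 for Gm10800 to 5.21 for Gm10720, whose DMSO counts were few. In tumors, the SE bars of Gm10717, Gm10718, Gm10719 and Gm10801 reach across 0, and Gm10800 alone was called lower.

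Bulk RNA cannot separate fewer cells of a type from less RNA per cell, and the makeup of the tumors differed between libraries. Summed marker levels were 174 to 267 CPM with vehicle and 162 to 226 CPM with YJ1206 for the 12 leukocyte genes, 760 to 2310 and 534 to 1287 CPM for the 6 fibroblast genes, and 95.9 to 103 and 110 to 122 CPM for the 5 endothelial genes. The leukocyte sum was mostly Lyz2, and its members differed in direction, with Cd8a higher (log2 fold change 0.74, edgeR adjusted p = 0.021) and S100a9 lower (-1.21, edgeR adjusted p = 0.044). The 5 skeletal muscle genes summed to 16.3 to 675 CPM in vehicle tumors and to 8.40 to 9.66 CPM in YJ1206 tumors, so that muscle RNA was lower in the same tumors in which Gm10800 was lower. The prostate list was at 3010 to 3354 CPM with vehicle and at 4199 to 4457 CPM with YJ1206. The part of these differences in the Gm10800 result was not tested. In cultured cells, where Gm10800 was higher with YJ1206, the leukocyte genes summed to at most 0.620 CPM and the endothelial genes to at most 0.308 CPM. The fibroblast genes summed to 9.07 to 10.5 CPM with DMSO and 8.45 to 9.61 CPM with YJ1206. The skeletal muscle genes summed to 1.84 to 2.83 CPM with DMSO and 3.61 to 4.16 CPM with YJ1206.

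On one scale fitted over all 12 libraries, the family was at 17.4 to 18.8 CPM in DMSO cells, 68.4 to 94.5 CPM in YJ1206 cells, 33.2 to 40.0 CPM in vehicle tumors and 16.9 to 33.6 CPM in YJ1206 tumors. The order was thus YJ1206 cells, vehicle tumors and then the other 2 groups. On this scale YJ1206 tumors overlapped with both vehicle tumors and DMSO cells. The cell and tumor tables were made separately, and the cell libraries are labelled as polyA RNA and the tumor libraries as total RNA although 1 protocol with removal of ribosomal RNA is given for both, so this order is a description.

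The 8 genes whose level followed the family sum most closely over the 12 libraries, out of 11229 tested in both tables, were Ankle2, Lrrc58, Spp1, Esyt2, Hipk1, Brap, Lrrfip2 and Csrnp2, with Pearson r of 0.948 to 0.972 on the log2(CPM + 1) scale. The points share the 4 groups, so r mainly describes the order of the groups. Ankle2, which acts in reassembly of the nuclear envelope after mitosis, was at 86.4 to 89.3 CPM in DMSO cells, 142 to 150 CPM in YJ1206 cells, 107 to 122 CPM in vehicle tumors and 97.0 to 112 CPM in YJ1206 tumors. Spp1, which encodes the secreted protein osteopontin, was at 139 to 150, 733 to 762, 206 to 255 and 124 to 204 CPM in the same groups. Spp1 spanned a range like that of the family, and the range of Ankle2 was narrower.

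Genes linked to pericentromeric heterochromatin or to silencing complexes were examined as a list, the heterochromatin list. Not all of them are known to act mainly on satellites. In cells the list had calls in both directions, as did all genes tested. Of its 36 tested genes, 14 were higher and 18 lower in YJ1206 cells (edgeR adjusted p-values under 0.05). The shares over all genes tested were 37.8% and 38.3%. The median log2 fold change of the list was -0.09. With total-count scaling 10 were higher and 21 lower, and on log2(TPM + 1) 9 were higher and 21 lower. The largest increases were in Daxx, a chaperone of histone H3.3, which rose from 22.2 ± 1.17 to 58.3 ± 1.86 CPM (SD, n = 3), and in Ehmt2, a methyltransferase of histone H3, with log2 fold changes of 1.39 and 1.10. The largest decreases were in Tasor, a subunit of the HUSH silencing complex, which fell from 76.4 ± 1.82 to 19.9 ± 2.34 CPM, and in Kmt5c, a methyltransferase of histone H4, with log2 fold changes of -1.94 and -1.67.

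In tumors, 2 of the 36 genes were higher and 20 lower with YJ1206, compared with 11.9% and 14.9% of all genes tested, and the median was -0.36. Mbd1 (0.33) and Ehmt2 (0.22) rose, and the largest decreases were in Hells (-1.38), a chromatin remodeler needed for DNA methylation of satellites, and in Uhrf1 (-1.32), which recruits the maintenance DNA methyltransferase. With libraries 1 and 2 alone, none of the 36 had an edgeR adjusted p-value under 0.05, and 20 had an unadjusted p-value under 0.05, 19 of them lower. DESeq2 on all libraries gave an unadjusted p-value under 0.05 for 23 genes of the list.

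Nuclear RNA surveillance, carried out by the exosome and its adaptors, removes many short-lived nuclear RNAs. Of 23 tested genes, 8 were higher and 12 lower in YJ1206 cells, against 37.8% and 38.3% of all genes tested, with a median log2 fold change of -0.29. The split was 5 and 14 with total-count scaling and 4 and 16 on log2(TPM + 1). The cap-binding gene Ncbp2 (0.71) and the poly(A) polymerase gene Tent4b (0.61) rose most, and the exosome adaptor Zcchc7 (-0.71) and the exosome subunit Exosc1 (-0.65) fell most. In tumors, 1 was higher, Zfc3h1 (0.25), and 14 were lower, against 11.9% and 14.9% of all genes tested, with a median of -0.27. The largest decreases were in the exosome subunits Exosc8 (-0.81) and Exosc2 (-0.69). The number called in tumors was 0 with libraries 1 and 2 alone, where 11 had an unadjusted p-value under 0.05. Leaving out vehicle library 3 gave 7 calls and leaving out YJ1206 library 3 gave 6.

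Among the abundant noncoding RNAs on the list, 4 were listed for cells and 0 for tumors. Neat1, the scaffold of nuclear paraspeckles, was at 605 ± 24.1 CPM in DMSO cells and 148 ± 9.31 CPM in YJ1206 cells (SD, n = 3; log2 fold change -2.03). Malat1 was at 3345 ± 303 and 3796 ± 475 CPM (log2 fold change 0.18), a difference of means smaller than the SD of the treated libraries, and Rmrp, the RNA of a ribosomal RNA processing enzyme, at 2.95 ± 0.309 and 10.8 ± 3.39 CPM (log2 fold change 1.88). All 3 had edgeR adjusted p-values under 0.05, the highest being 0.0035 for Malat1. Such calls were common in cells, where 37.8% of all genes tested were called higher and 38.3% lower. Terc was near the floor and was not tested. In the cells in which the Gm10718 family was higher, Neat1 was thus lower and Rmrp higher.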

How the data were processed

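RNA was sequenced from 12 libraries, 3 per group. The protocol given names removal of ribosomal RNA with a KAPA RiboErase kit. The cell libraries are nevertheless labelled as polyA RNA and the tumor libraries as total RNA. Per the labels, the submitters' processing notes name kallisto and GRCm38/mm10. Versions and the annotation release are not given in the sources used here. The authors deposited estimated counts per gene, not scaled between libraries, and TPM, scaled by the authors for transcript length and library. kallisto divides a read among the transcripts it matches.

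Estimated counts were rounded, filtered with filterByExpr, scaled by TMM and tested with the quasi-likelihood test of edgeR 4.0.16 (R 4.3.3), each experiment separately, over 11826 genes in cells and 15558 in tumors. Members were also summed before fitting. limma 3.58.1 on log2(TPM + 1) and log2(TPM + 0.1), DESeq2 1.42.0, total-count scaling, no filter, a replicate block and left-out libraries were alternatives. The study's methods call its replicates biologically independent, without tying these libraries to cultures or animals, and p-values measure the spread between the libraries. Gene models and transcripts came from GENCODE M21. Words of 31 bases were compared in sense among members and on both strands with other genes. Members and lists were chosen with earlier results of these data known. All 10 members are named, as are the 8 genes most like the family sum and the 2 largest rises and falls of each tested list, while Gm17535, Gm21738, Lyz2, Cd8a and S100a9 were chosen after their values were seen. Floors cover counting error only.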

Additional observations from a re-analysis of the deposited data

Results flagged for a closer look

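Gm10800 and the sums that contain it moved in opposite directions in cells and tumors, with every YJ1206 library above the DMSO libraries in cells and below the vehicle libraries in tumors. The log2 fold change of Gm10800 was 1.34 in cells and -0.88 in tumors. The chromosome 2 pair gave 1.35 and -0.85, and the sum of all 10 genes 2.22 and -0.62. These 3 results share the Gm10800 reads. On the scale fitted over all 12 libraries, the tumor groups overlapped in the sum of all 10 genes. The highest YJ1206 library was at 33.6 CPM and the lowest vehicle library at 33.2 CPM. The difference between cells and tumors was not tested.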

How the results depend on the processing

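In cells, 9 members were at least 2-fold higher in each of the 6 fits that left out 1 library, and 7 to 10 under the other settings, and the family sum stayed between 2.15 and 2.36 on the log2 scale, the chromosome 9 sum between 3.56 and 3.90 and the chromosome 2 sum between 1.26 and 1.47. Total-count scaling lowered the median of all genes in cells by 0.19 and gave 1.16 for the chromosome 2 sum. On log2(TPM + 1), the family, chromosome 9 and chromosome 2 values were 1.81, 3.27 and 0.98, and on log2(TPM + 0.1) they were 1.83, 3.37 and 0.99. In tumors, the sum of all 10 genes ranged from -0.90 to -0.41, the chromosome 2 sum from -1.07 to -0.63 and the chromosome 9 sum from -0.42 to 0.18 with 1 library left out, the last turning positive without vehicle library 1 (0.058), YJ1206 library 2 (0.18) and YJ1206 library 3 (0.038). The number of members called in tumors was 0 to 2, with 0 without vehicle library 3 or YJ1206 library 3 and 2 without vehicle library 2. It was 0 with libraries 1 and 2 alone, where 1 member (Gm10800) had an unadjusted p-value under 0.05 and 1 gene in all was called, and the tumor heterochromatin and RNA surveillance lists then had 0 calls. Leaving out 1 library gave 18 to 23 calls in the heterochromatin list and 6 to 16 in the surveillance list. Gm10800 was called lower in tumors in 10 of 13 alternatives (edgeR, limma or DESeq2 adjusted p from 0.00056 to 0.25). Members without a call changed sign, with ranges over the fits that left out 1 library of -0.60 to 0.12 for Gm10717, -0.74 to 0.27 for Gm10718 and -0.54 to 0.21 for Gm10801: with libraries 1 and 2 alone Gm10718 (0.20) and Gm10801 (0.020), without vehicle library 1 Gm10801 (0.12), without YJ1206 library 1 Gm10717 (0.12), without YJ1206 library 2 Gm10717 (0.015), Gm10718 (0.086) and Gm10801 (0.21), and without YJ1206 library 3 Gm10718 (0.27) and Gm10801 (0.089). The cause was not tested. Same-numbered libraries did not deviate together (correlations from -0.030 to 0.010), so the replicate numbers are not taken as pairs. With a replicate block, the family sum was 2.21 in cells and -0.67 in tumors, Gm10800 in tumors was -0.91 (edgeR adjusted p = 0.017), and no count of calls moved by over 1.5 times. Depth limits the 4 members under the count filter in tumors and Gm10715 in cells.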
